A study of Sus scrofa with 2 samples.

Results

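The genes described here encode membrane pumps that use ATP to move sodium, potassium or calcium. They are the beta subunits ATP1B1, ATP1B2 and ATP1B3 of the sodium-potassium pump, the endoplasmic reticulum calcium pump ATP2A2, and the plasma membrane calcium pumps ATP2B1, ATP2B2 and ATP2B4. They were taken from a table of RNA sequencing counts by their symbol or, where a row had only a locus number, by a product name that gave the subunit. This found 7 genes in 11 rows, among 21441 genes in 21817 rows. The tissues were brain and liver of pigs of the Rongchang breed, frozen after collection, and each gave 1 library. No treatment, age, sex or region of the brain is labelled, and the labels leave unsaid whether 1 animal gave both pieces. There was thus no replicate check and no test, and every interval below covers counting error only.

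The sodium-potassium pump exports sodium and imports potassium, and in neurons it restores the gradients that each impulse uses up. Its alpha subunit carries out transport, while its beta subunit is needed for folding and for delivery to the cell surface. Calcium pumps keep free calcium in the cytosol low. ATP2A2, also called SERCA2, fills the endoplasmic reticulum, and the ATP2B genes, or PMCA pumps, send calcium out of the cell.

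Total counts were 23796843 in brain and 31724498 in liver. Levels are scaled counts per 1000000 (CPM) by TMM, a method that assumes most genes do not differ, and 1 CPM equalled 34.9 counts in brain and 21.6 in liver. Genes that reached 1 CPM in either library were compared on the scale of log2(CPM + 1), and a call needed a 4-fold difference, that is, a log2 ratio of 2 or -2. Among 15568 genes tested, 14.6% were called higher in brain and 11.3% in liver. Brain calls made up 56.3% of all calls, and 80.0% with plain library size, which moved the median log2 ratio of all genes to 0.98, against 0.02 with TMM. Markers of several cell types followed the labels. All 5 neuronal and all 5 astrocyte marker genes with a row were called higher in brain. All 6 hepatocyte, all 5 Kupffer cell and all 4 liver sinusoidal endothelium marker genes were called higher in liver. Other sets followed in part. Brain calls covered 4 of 5 oligodendrocyte, 2 of 4 brain endothelium and 1 of 4 microglia markers, and liver calls covered 2 of 5 cholangiocyte markers. Of 4 choroid plexus markers with a row, 0 were called in brain and 2 in liver.

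All 7 pump genes passed the expression minimum, and 3 were called higher in brain (ATP1B2, ATP2B1 and ATP2B4) and 0 in liver, beside the 14.6% and 11.3% of all genes. Their median log2 ratio was 1.86. The ratio was above 0 for 6 of the 7, and ATP2B2 lay the other way at -0.45. Its sign turned with plain library size (0.65) and with the row under its symbol alone (1.09). With plain library size, ATP1B1 and ATP1B3 also passed 4-fold, which made 5 calls in brain, beside 24.1% of all genes under that setting. With 7 genes, these counts describe the family and do not set it apart from other genes. In whole tissue, fewer cells of a type and less RNA per cell cannot be told apart.

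**Figure D1:**
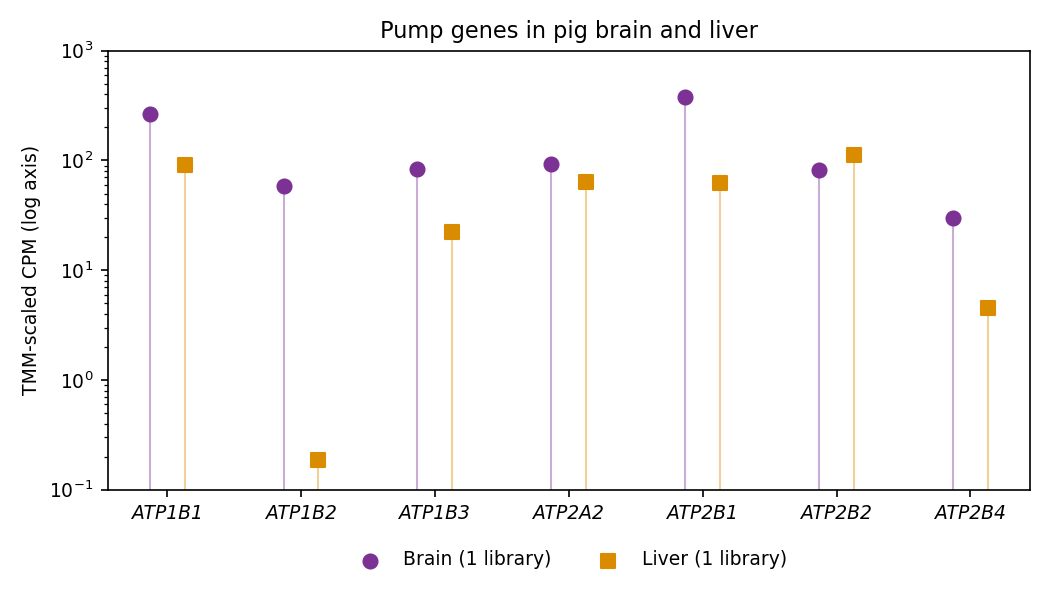
Level of each pump gene in the brain library (circles) and the liver library (squares), in TMM-scaled CPM on a log axis, with no replicates. ATP1B2 shows the widest gap, at 58.3 CPM in brain and 0.185 CPM in liver, while ATP2B2 is the gene with the higher point in liver, an order that turns with plain library size or with its symbol row alone.

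**Figure D2:**
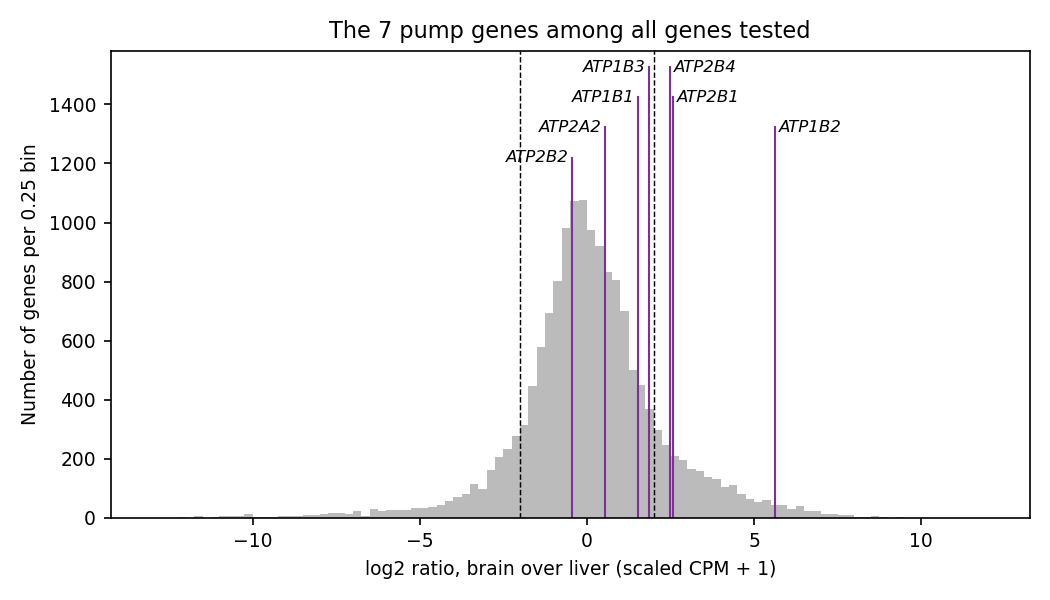
Histogram of the log2 ratio, brain over liver, of 15568 genes in bins of 0.25, with the 7 pump genes as vertical lines and the 4-fold limits dashed. ATP1B2, ATP2B1 and ATP2B4 stand beyond the limit on the brain side, and ATP2B2, at -0.45, stands left of 0 with TMM but right of it with plain library size (0.65) or with its symbol row alone (1.09).

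Among the beta subunits, the tissues differed most in ATP1B2, known in rodents as a glial adhesion molecule as well as a pump subunit. ATP1B2 had 2035 counts in brain and 4 in liver, or 58.3 CPM in brain and 0.185 CPM in liver. The fold was 315 (95% interval 123 to 1156), and its width comes from the 4 liver counts. ATP1B2 was thus close to the floor of detection in liver and well measured in brain. The summed level of astrocyte markers was 1205 CPM in brain, against 20.5 CPM in liver with AQP4 at 0, and that of neuronal markers was 4219 CPM in brain, against 7.59 CPM in liver. Their part in the ATP1B2 difference was not tested.

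ATP1B1, the widely used beta subunit, had 9258 counts in brain and 1984 in liver, or 265 CPM in brain and 91.8 CPM in liver. It was 2.89-fold higher in brain (2.75 to 3.03). ATP1B3 had 2919 counts in brain and 482 in liver, or 83.6 CPM in brain and 22.3 CPM in liver, a 3.75-fold difference (3.40 to 4.13). Both were present in both tissues and both lay below the 4-fold limit with TMM, with log2 ratios of 1.52 and 1.86. With plain library size both passed it, at 2.62 and 2.93. The intervals of the 2 folds do not overlap, and ATP1B3 leaned further to brain than ATP1B1.

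The mix of beta subunits therefore differed between the tissues. Shares are given as percent of the summed counts of the 3 genes. They are not corrected for transcript length, so they compare tissues and not genes within a tissue. ATP1B2 took 14.3% of beta counts in brain (Wilson interval 13.8 to 14.9) and 0.162% in liver (0.0630 to 0.416). ATP1B1 took 65.1% in brain (64.4 to 65.9) and 80.3% in liver (78.7 to 81.8). ATP1B3 took nearly the same share in both, 20.5% in brain (19.9 to 21.2) and 19.5% in liver (18.0 to 21.1). A ratio of 2 genes within a library is free of the scaling, and a comparison of such ratios between libraries is free of length as well. For 100 ATP1B1 counts there were 22.0 ATP1B2 counts in brain and 0.202 in liver, a 109-fold difference (42.4 to 401). For 100 ATP1B1 counts there were 31.5 ATP1B3 counts in brain and 24.3 in liver, a 1.30-fold difference (1.16 to 1.45).

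**Figure D3:**
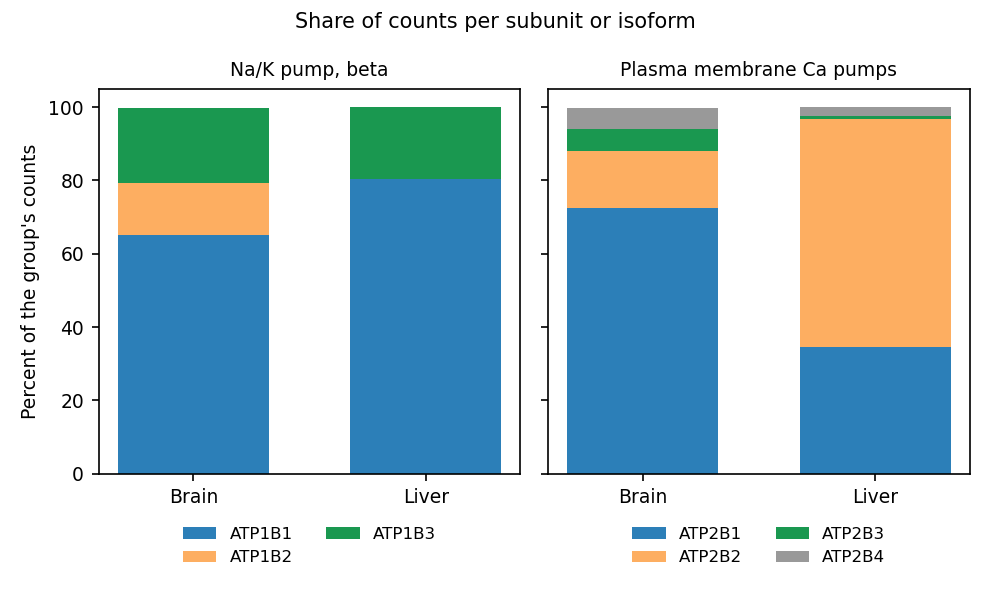
Percent of counts taken by each beta subunit and each plasma membrane calcium pump, in brain (left bars) and liver (right bars), uncorrected for length. ATP1B2 is visible in the brain bar alone, and ATP2B2 takes 15.7% of calcium pump counts in brain and 62.2% in liver, a share that rests on 1 row of the table.

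The fourth beta gene, ATP1B4, known from muscle, had 3 counts in brain and 1 in liver and did not pass the minimum. A separate row with the product name ATP1B4-like had 239 counts in brain and 75 in liver, a 1.97-fold difference (1.51 to 2.59). It carries no symbol and was not added to any gene.

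FXYD proteins are small membrane partners that tune the sodium-potassium pump. Of the 7 genes of that list, 5 had a row and 4 passed the minimum. Of these, 0 were called in brain and 2 in liver, beside 14.6% and 11.3% of all genes. The median log2 ratio was -1.98, against 0.02 for all genes. With plain library size it was -1.20, against 0.98 for all genes. There were then 0 calls, beside 24.1% of all genes in brain and 6.02% in liver. FXYD4 had 2963 counts in brain and 7440 in liver and was 4.06-fold higher in liver, at a log2 ratio of -2.01, close to the limit. A row matched by gene number to FXYD7 had 792 counts in brain and 3175 in liver and was 6.48-fold higher in liver, but its deposited product name is phospholemman-like, the usual name of FXYD1, so its identity is uncertain. FXYD2, a regulator best known from kidney, had 4 counts in brain and 72 in liver and was 29.1-fold higher in liver (10.9 to 110). On the scale of log2(CPM + 1) its ratio was -1.96, just short of a call. FXYD5 had 288 in brain and 208 in liver. FXYD3, with 2 counts in brain and 0 in liver, was too scarce to compare.

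ATP2A2, the calcium pump of the endoplasmic reticulum in most cells and of slow and cardiac muscle, lay well below the 4-fold limit. It had 3226 counts in brain and 1368 in liver, or 92.3 CPM in brain and 63.3 CPM in liver. The fold was 1.46 toward brain (1.37 to 1.56), and 3.14 (2.95 to 3.35) with plain library size, so its size depends on the scaling. The gene is split over 2 rows. The row of 44871 bp had 881 counts in brain and 399 in liver, and the row of 27885 bp had 2345 in brain and 969 in liver. Their folds, 1.37 (1.21 to 1.54) and 1.50 (1.39 to 1.62), overlap, and the shorter row took 72.7% of the gene's counts in brain and 70.8% in liver. Both rows gave the same picture. Muscle markers with a row summed to 67.8 CPM in brain, against 124 CPM in liver, and their part in the ATP2A2 values was not tested.

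The other calcium pumps of internal stores were scarce, apart from ATP2C1. ATP2A1, the pump of fast muscle, had 24 counts in brain and 7 in liver and did not pass the minimum. ATP2A3 had 75 in brain and 64 in liver, a log2 ratio of -0.33, and 0.46 with plain library size. ATP2C1, the calcium and manganese pump of the Golgi, had 6450 counts in brain and 2017 in liver and was 1.98-fold higher in brain (1.88 to 2.08). With plain library size it was 4.26-fold higher (4.05 to 4.48), at a log2 ratio of 2.07, past the limit. Per ATP2C1 count, ATP2A2 had 0.737 times as many counts in brain as in liver (0.680 to 0.800). The 6 regulators listed for ATP2A pumps, phospholamban (PLN) and sarcolipin (SLN) among them, had no row under their symbols after naming and so have no values.

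Among the plasma membrane pumps, ATP2B1, the form found in most tissues, had 13095 counts in brain and 1340 in liver, or 375 CPM in brain and 62.0 CPM in liver. It was 6.05-fold higher in brain (5.71 to 6.40). ATP2B4, the other widespread form and a pump of red blood cells, had 1053 counts in brain and 97 in liver, or 30.1 CPM in brain and 4.49 CPM in liver, a 6.72-fold difference (5.45 to 8.36). The intervals of these 2 folds overlap. For 100 ATP2B1 counts there were 8.04 ATP2B4 counts in brain and 7.24 in liver, a ratio of 1.11 (0.894 to 1.39). With rows under the symbol alone it was 5.01 in brain and 9.04 in liver, a ratio of 0.554 (0.426 to 0.729). Summed red blood cell markers stood at 89.6 CPM in brain, against 294 CPM in liver. What these markers say of the ATP2B4 counts was not tested. ATP2B3, a pump of neurons, was also higher in brain, with 1083 counts there and 26 in liver, a 25.8-fold difference (17.5 to 39.6).

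ATP2B2, known in other mammals from neurons and from hair cells of the inner ear, did not share this pattern. It had 2847 counts in brain and 2410 in liver, or 81.5 CPM in brain and 112 CPM in liver. That is 1.37-fold higher in liver (1.30 to 1.45), but 1.57-fold higher in brain (1.49 to 1.66) with plain library size. Relative to the median of all genes, its log2 ratio was -0.46 with TMM and -0.33 with plain library size. Set against ATP2B1, the contrast is free of the scaling but not of the rows used. For 100 ATP2B2 counts there were 460 ATP2B1 counts in brain and 55.6 in liver, an 8.27-fold difference (7.64 to 8.95). With symbol rows alone it was 2364 in brain and 727 in liver, a 3.25-fold difference (2.57 to 4.08).

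The liver counts of ATP2B2 came almost wholly from 1 of its 2 rows. The row named by its product, of 96814 bp, had 2435 counts in brain and 2302 in liver, which is 85.5% of the gene's counts in brain and 95.5% in liver. The row listed under the symbol, of 79542 bp on an assembly scaffold, had 412 counts in brain and 108 in liver. The fold, brain over liver, was 0.654 (0.618 to 0.693) in the first row and 2.36 (1.90 to 2.94) in the second, so the rows lie on opposite sides of 1. With plain library size both lay on the brain side, at 1.41 and 5.09. The scaffold row's fold was 3.61 times that of the other (2.89 to 4.53), whatever the scaling. The rows on either side of the longer one in the table's numbering were both higher in liver. They were a SEC13 homolog, with 515 counts in brain and 1137 in liver, and a GABA transporter 3-like row, with 235 in brain and 665 in liver. The part of these neighbours in the liver counts of the ATP2B2 row was not tested, and the strand setting of the counting is not given in the sources used here. Liver-leaning neighbours were not particular to ATP2B2. With TMM, ZC3H11A beside ATP2B4 (1.90-fold), ANAPC7 beside ATP2A2 (1.55-fold) and an unnamed row beside ATP2B1 (2.42-fold) were higher in liver too. IFT81 (2.16-fold) and an unnamed row (5.98-fold), both beside ATP2A2, were higher in brain.

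ATP2B1 and ATP2B4 were each split over 2 rows as well, and their rows differed in size but not in direction. For ATP2B1, the row of 112733 bp had 9740 counts in brain and 785 in liver, a 7.68-fold difference (7.14 to 8.26). Its row of 27421 bp, named by product, had 3355 in brain and 555 in liver, a 3.74-fold difference (3.42 to 4.10). The longer row was the one with the larger lean to brain. For ATP2B4, the row of 25254 bp, named by product, had 565 counts in brain and 26 in liver, a 13.4-fold difference (9.08 to 20.8). Its row of 48461 bp had 488 in brain and 71 in liver, a 4.25-fold difference (3.31 to 5.53). The fold of the first row over that of the second was 2.05 for ATP2B1 (1.82 to 2.31). For ATP2B4 the symbol row stood at 0.316 of the product row (0.191 to 0.512). Of the 4 split genes, ATP2A2 was the one whose rows agree within counting error.

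**Figure D4:**
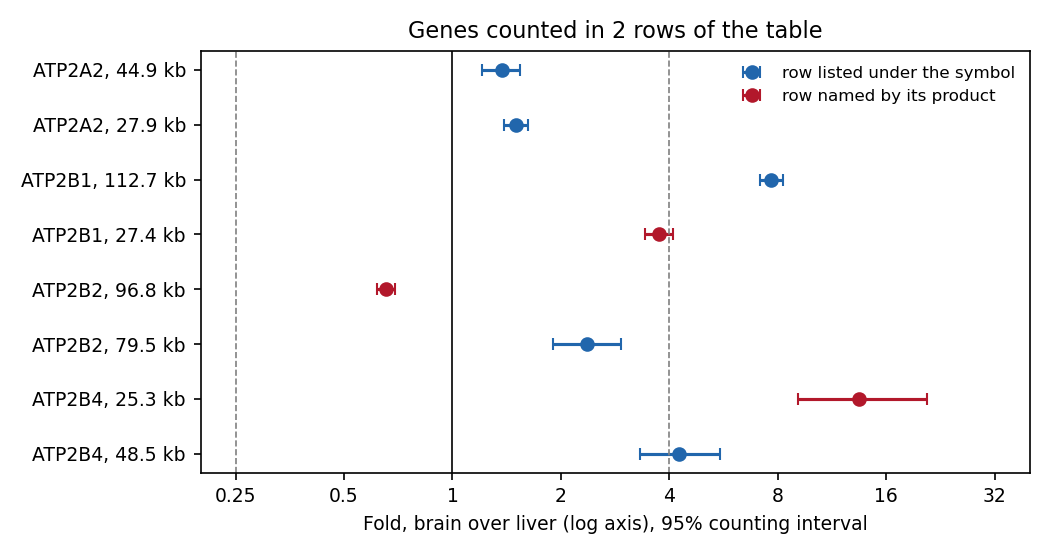
Fold, brain over liver, on a log axis for each row of the 4 genes counted in 2 rows, with 95% counting intervals. Dashed lines mark 4-fold, and colours show how the row was named. The ATP2A2 rows overlap, the ATP2B1 and ATP2B4 rows stand apart on the brain side, and the ATP2B2 rows fall on opposite sides of 1 with TMM, though both lie above 1 with plain library size.

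The mix of ATP2B1, ATP2B2 and ATP2B4 differed accordingly. ATP2B1 took 77.1% of their counts in brain (76.4 to 77.7) and 34.8% in liver (33.3 to 36.4). ATP2B2 took 16.8% in brain (16.2 to 17.3) and 62.6% in liver (61.1 to 64.2). ATP2B4 took 6.20% in brain (5.84 to 6.57) and 2.52% in liver (2.07 to 3.07). With rows under the symbol alone, ATP2B1 took 91.5% in brain and 81.4% in liver, and ATP2B2 took 3.87% in brain and 11.2% in liver. The order of ATP2B4 turned there, with 4.59% in brain and 7.37% in liver. In both versions ATP2B2 held a larger share in liver than in brain, but its share of 62.6% in liver rested on the row named by its product. These shares are not corrected for length either, so they do not rank the pumps within a tissue.

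Plasma membrane calcium pumps assemble with NPTN (neuroplastin) or BSG (basigin). NPTN had 2913 counts in brain and 726 in liver and was 2.48-fold higher in brain (2.29 to 2.70). BSG had 2110 in brain and 3820 in liver and was 2.93-fold higher in liver. Neither passed 4-fold with TMM, and with plain library size NPTN did, at a log2 ratio of 2.37.

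Sodium-calcium exchangers, which use the sodium gradient to remove calcium, lay on the brain side. Of 9 genes, 8 had a row and passed, with 6 called in brain and 0 in liver, and the median log2 ratio was 3.34, against 0.02 for all genes. Of all genes, 14.6% were called in brain with TMM and 24.1% with plain library size, which also called 6 of these genes. SLC8A2, the exchanger typical of neurons, was highest at 6.62, with 4999 counts in brain and 10 in liver. SLC24A2 was at 5.61, SLC8A3 at 4.20, SLC24A5 at 3.41, SLC24A3 at 3.26 and SLC8A1 at 2.95. SLC8B1, the mitochondrial exchanger, was at -0.81, a sign that plain library size turned (0.28).

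Genes of the endoplasmic reticulum store were less one-sided. All 6 release channel genes passed, with 1 called in brain and 0 in liver, beside 14.6% and 11.3% of all genes. It was RYR2, a ryanodine receptor of heart and neurons, at 6.13, with 5796 counts in brain and 30 in liver. RYR1 was at 1.41, and at 2.02 under plain library size it passed the limit. RYR3 was at 0.81, ITPR2 at -0.65 and ITPR3 at 0.08. ITPR1, an IP3 receptor, was at -0.16, which became 0.92 under plain library size. Of 7 genes of calcium binding and store-operated entry that passed, 0 were called in brain and 2 in liver, beside the same shares of all genes. These were the calcium-binding chaperones CALR at -2.05 and HSPA5 at -2.16, and with plain library size they stood at -0.94 and -1.05, below the limit. STIM2, a sensor of store calcium, leaned to brain at 1.77, and at 2.82 under plain library size it passed the limit. Its relative STIM1 was at -1.06, or 0.02 under plain library size. Of 5 genes of mitochondrial calcium uptake that passed, 1 was called in brain, MICU3 at 4.32, and 0 in liver, beside 14.6% and 11.3% of all genes.

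The remaining P-type ATPases, mostly lipid flippases and metal pumps, were divided. Their list also holds TMEM30B, an accessory subunit and not an ATPase, at -1.54. Of 19 genes of the list that passed, 5 were called in brain and 4 in liver, beside 14.6% and 11.3% of all genes. Their median log2 ratio was 0.15, against 0.02 for all genes. Those in brain were ATP13A4 (3.61), ATP10A (3.44), ATP9A (3.24), ATP8A2 (3.14) and ATP8A1 (2.45). Those in liver included ATP7B, the copper pump of hepatocytes, at -2.99, ATP8B3 (-2.86) and ATP8B1, a flippase of the bile canaliculus, at -2.67. With plain library size, ATP8B1 stood at -1.68. ATP4A, the acid pump of the stomach, had 9 counts in brain and 26 in liver. Over all lists 59 genes passed, with 17 called in brain and 8 in liver, beside 14.6% and 11.3% of all genes. Under plain library size there were 23 brain calls, beside 24.1% of all genes, and 2 liver calls, beside 6.02%. These totals include 4 alpha subunit genes of the sodium-potassium pump, whose values are not given here. That list gave 3 of the brain calls under TMM and 4 under plain library size.

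**Figure D5:**
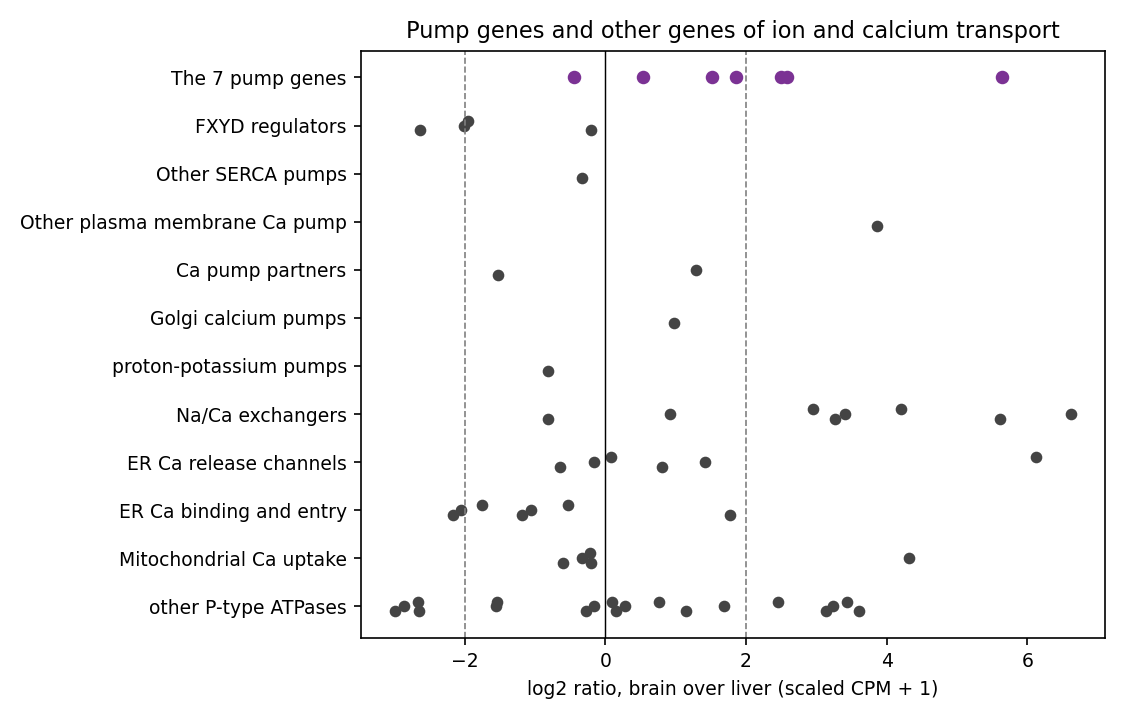
The log2 ratio, brain over liver, with TMM for the 7 pump genes (top line) and for each gene of the other lists shown that passed the minimum, 1 point a gene, with the 4-fold limits dashed. Sodium-calcium exchangers reach farthest to the brain side, and FXYD regulators and genes of endoplasmic reticulum calcium binding and entry lie mostly left of 0, several of them right of it with plain library size.

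For each pump gene, the 2 genes nearest in level were found by Euclidean distance of log2(CPM + 1) over the 2 libraries. ATP1B2 lay nearest to JPH4 (distance 0.00139), at 58.2 CPM in brain against 0.185 CPM in liver, and to BRINP3 (0.0696). ATP1B1 lay nearest to ADD1 and VIM, ATP1B3 to MEGF9 and TSC22D1, and ATP2A2 to BAP1 and PAFAH1B2. ATP2B4 lay nearest to GUCY1A3 and HOMER3, and ATP2B2 to JDP2 and RPL35A. ATP2B1 had no gene as close, with PEG3 at 0.292 and PTPRA at 0.370. With 2 libraries and no correction for length, such nearness says only that the counts were alike.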

How the data were processed

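RNA of 1 brain and 1 liver library of Rongchang pigs was sequenced. The values are raw counts per gene row, deposited by the authors in 1 table, and were recognised as counts because they are whole numbers with different totals. Reads were aligned with TopHat to Sscrofa10.2 (susScr3), per the submitters' processing notes. Which program counted reads, and whether by strand, is not given in the sources used here. The deposited length in bp appears to span introns, so it was not used to correct levels.

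Rows were named by their symbol (7965 rows), by product for the pumps (5 rows), or through a RefSeq gene table of Sscrofa11.1 by gene number (6591 rows), synonym (235) or accession (21), which left 7000 unnamed. Rows of 1 gene were summed. Scaling used TMM in edgeR 4.0.16 (R 4.3.3), with factors of 1.47 for brain and 0.681 for liver. Folds are ratios of CPM without a pseudocount. Each has a 95% interval from the exact binomial distribution of the 2 counts, comparisons of ratios have exact conditional intervals of the odds ratio (scipy 1.17.1), and shares have Wilson intervals. PCR reads are not independent molecules, so intervals cover counting error only.

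The members, lists and settings were chosen with earlier results of these data known. Genes named are the 7 members, their pump relatives, FXYD genes, list genes past 4-fold and the 2 nearest genes of each member. Other list genes and neighbouring rows were added after their values were seen, or as context. These genes were FXYD2, FXYD5, NPTN, BSG, SLC8B1, ITPR1, ITPR2, ITPR3, RYR1, RYR3, STIM1, STIM2, ATP4A and TMEM30B. Some genes that this rule takes are not reported here. Settings tried were plain library size, median-of-ratios size factors (DESeq2 1.42.0), TMM without the 50 highest genes, pseudocounts of 0.1 and 5 CPM, no filter or 5 CPM, 2-fold and 8-fold limits, the highest row per gene, and symbol rows alone.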

Additional observations from a re-analysis of the deposited data

How the results depend on the processing

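With 1 library per tissue no replicate could be left out, and depth limits ATP1B2 most, whose fold rests on 4 liver counts. No paired analysis was possible because each tissue has 1 library and no test was made. Counts per kb of coding length were not run, since no coding lengths were used here. Of 47 recomputed log2 ratios of members, 31 moved by less than the counting error, 16 moved by more, and 0 of the called ones changed sign. Some of the 31 could not move. The highest row is the only row of ATP1B1, ATP1B2 and ATP1B3, and ATP1B1 and ATP2A2 have symbol rows only.

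In brain, 3 members passed 4-fold. It was 5 with plain library size, where 24.1% of all genes were called in brain. It was 5 at a 2-fold limit, where 4283 of 15568 genes were called in brain, and 1 at 8-fold, where 1330 were. With symbol rows alone it was 1 of the members that kept a row, and the share of all genes was not recomputed there. Symbol rows alone leave ATP1B2 and ATP1B3 without a row, so the beta mix has no value there. ATP2B4 fell below 4-fold with a pseudocount of 5 CPM, at 1.89, and with symbol rows alone, at 1.80, where ATP2B2 stood at 1.09. List genes called in liver, 8 with TMM, numbered 2 with plain library size, 4 with a pseudocount of 5 CPM, 15 at 2-fold and 0 at 8-fold. Over all genes, liver calls moved as well, from 1766 with TMM to 953, 1116, 3800 and 887 in the same order of settings. The genes tested were 15568 with TMM and 15818 with plain library size.

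Over all genes, 2279 were called in brain and 1766 in liver. The counts were 3818 in brain and 953 in liver with plain library size, 1231 in brain and 1116 in liver with a pseudocount of 5 CPM, 4283 in brain and 3800 in liver at 2-fold, and 1330 in brain and 887 in liver at 8-fold. Median-of-ratios scaling and TMM without the 50 highest genes left 17 list genes in brain and 8 in liver, beside 14.6% and 11.4% of all genes.

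Shares of the plasma membrane pumps moved with the choice of rows. With the highest row per gene, ATP2B2 took 19.1% in brain and 73.9% in liver, ATP2B4 4.43% in brain and 0.835% in liver, and ATP2B1 25.2% in liver. With ATP2B3 in the total, the brain shares of ATP2B1, ATP2B2 and ATP2B4 were 72.4%, 15.7% and 5.82%. With symbol rows alone, ATP2B1 took 91.5% in brain and 81.4% in liver, ATP2B2 3.87% in brain and 11.2% in liver, and ATP2B4 4.59% in brain and 7.37% in liver. These versions differ only in the rows or genes counted, and why the rows of a gene differ was not tested.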
